A study of Mus musculus with 6 samples.

Results

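The odorant receptor genes described here are Olfr15 and the genes named from Olfr161 to Olfr209, which lie on mouse chromosome 16. A member had to have a probe set with a single gene symbol, and where a gene has several, the brightest on average across the 6 arrays stands for it. Of the 50 symbols this covers, 33 were measured, out of 19938 genes tested. Another 5 symbols stood only on probe sets that carry several symbols, and 12 were not matched to a probe set here, 7 of which are pseudogene entries in the reference. No gene had more than 1 single-symbol probe set, so the mean signal decided no choice among them. The group was selected on its symbols with the genotype differences on these arrays already known, so the differences below describe a chosen set and are no independent support for it.

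The groups were Fezf1-/- cells and Fezf1+/- cells, with 3 arrays each, sorted from the main olfactory epithelium of C57BL/6 embryos at E18.5. The targeted allele of Fezf1 puts EGFP under the Fezf1 promoter, and the cells of both groups carry it, so both sorts hold cells in which that promoter is active and neither holds wild-type cells. RNA of each sort was hybridised to an Affymetrix 1.0 ST array, and values are log2 signals per probe set, on which a difference of 1 unit is a 2-fold change. The labels do not say whether a sample came from 1 embryo or from a pool, and the p-values measure only the spread between these samples.

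Odorant receptors are G protein-coupled receptors in the cilia of olfactory sensory neurons. A mature neuron expresses a single receptor gene from a single allele, and the receptor signals through the olfactory G protein to adenylate cyclase and a cyclic nucleotide-gated channel. Receptor genes stand in clusters on many chromosomes, and each is used in a small share of neurons within a zone of the epithelium. In RNA from sorted cells, fewer neurons that use a receptor and less RNA per neuron cannot be told apart.

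In RefSeq's gene order the members form 3 runs on chromosome 16, separated by more than 10 genes that are no odorant receptor. Run 1 holds Olfr161 and Olfr15, run 2 holds the 7 members from Olfr164 to Olfr171, and run 3 holds the 24 members from Olfr172 to Olfr206. RefSeq synonyms place them in receptor families of the MOR nomenclature, which is based on sequence similarity. Olfr15 belongs to MOR256, Olfr166, Olfr167 and Olfr168 are each the only member of their family here, and run 3 is made mainly of MOR182, MOR183 and MOR184. Of the 33 members, 2 (Olfr192 and Olfr197) are annotated as transcribed pseudogenes.

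Coding starts were read from RefSeq's sequence on GRCm38.p6, as the first 50 bases from the annotated start, for 11 of the members. They were read where these bases open with ATG, hold no stop codon in frame and the gene is a whole number of codons long. Whether this ATG is the start codon used was not tested. The lines below pair a receptor that fell with a receptor of its run that did not pass the test, and capitals mark the opening ATG.
Olfr15 (chr16:3838975-3839024, plus strand): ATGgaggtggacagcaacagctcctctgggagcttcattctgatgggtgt
Olfr161 (chr16:3592398-3592447, plus strand): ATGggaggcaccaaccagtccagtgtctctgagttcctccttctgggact
Olfr191 (chr16:59086432-59086481, minus strand): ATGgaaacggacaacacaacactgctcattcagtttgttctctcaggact
Olfr202 (chr16:59284446-59284495, minus strand): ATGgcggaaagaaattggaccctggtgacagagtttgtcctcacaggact
Compared position by position without gaps, Olfr15 and Olfr161 matched at 21 of these 50 bases, Olfr191 and Olfr202 at 30, and Olfr15 and Olfr191 at 22. Some starts within MOR182 matched at more positions, with 39 matching bases between Olfr201 and Olfr202 and 37 between Olfr198 and Olfr202. Olfr203, also of MOR182, matched Olfr202 at only 17, whereas Olfr161 and Olfr201, of different families, matched at 32. The longest identical stretch was nonetheless 13 bases for Olfr202 and Olfr203 and 7 for Olfr161 and Olfr201. A count without gaps drops when the starts are offset by a few bases, so it does not measure how related the receptors are.

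Probe sets of close relatives can bind each other's transcripts, and some genes of run 2 share sequence at their coding starts. Olfr169 had no probe set of its own and stood on a probe set that also names Olfr170 and Olfr171. In the next lines capitals mark the longest stretch that the coding starts of Olfr169 and Olfr170 share, which is 27 bases long.
Olfr170 (chr16:19606617-19606666, minus strand): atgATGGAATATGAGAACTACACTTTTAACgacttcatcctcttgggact
Olfr169 (chr16:19566832-19566881, minus strand): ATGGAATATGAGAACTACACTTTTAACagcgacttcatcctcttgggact
Where the probes lie in these genes was not examined, and whether relatives bind the probe set of Olfr170 or of any other member was not tested.

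Fezf1 had signals of 5.56, 5.92 and 6.28 on the Fezf1-/- arrays, against 11.25, 11.13 and 11.30 on the Fezf1+/- arrays, lower on every Fezf1-/- array, as labelled. Fezf1-/- array 1 stood apart, with correlations across genes of 0.905 to 0.935 to the other arrays, against 0.975 to 0.995 among the other 5. The main counts and differences are therefore also given without it, and the plot of differences along the chromosome shows every receptor both ways. Mature neuron markers were present in both groups but low on that array, with a summed signal of 11.82 in log2 units there, 13.29 and 13.38 on the other Fezf1-/- arrays, and 13.96 to 14.43 on the Fezf1+/- arrays. The mesenchyme and bone list, 10 of 10 genes measured, summed to 14.08 on Fezf1-/- array 1, 10.25 to 10.87 on the other Fezf1-/- arrays and 10.14 to 11.31 on the Fezf1+/- arrays. The 10 myeloid markers summed to 11.67 on that array, 8.92 and 8.95 on the other Fezf1-/- arrays and 8.79 to 9.24 on the Fezf1+/- arrays. Ensheathing glia markers, 5 of 7 measured, summed to 12.35 there, 9.23 and 9.32 on the other Fezf1-/- arrays and 9.02 to 9.71 on the Fezf1+/- arrays. In each of these marker lists 0 genes passed by limma with all arrays, and 13 of the 15 mature neuron markers were lower at an unadjusted p under 0.05. Without Fezf1-/- array 1, 6 of those 15 were called lower, among them the olfactory marker protein gene Omp (-1.12, limma adjusted p = 0.00702) and Adcy3 (-0.93, adjusted p = 0.0432). Of the 14 immature neuron markers 3 were then called higher, Ablim1, Chl1 and Stmn4, where the list's median was 0.33, and 0 passed with all arrays. Their part in the receptor results was not tested.

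Of the 33 receptors, 7 fell in Fezf1-/- cells and 0 rose by limma at an adjusted p of 0.05 over all genes. Before adjustment, 25 were lower with a p under 0.05 and 0 were higher. Over all genes tested, 0.456% passed as lower and 0.0953% as higher, and at the unadjusted threshold 5.25% were lower and 4.23% higher. The 7 that fell were Olfr15, Olfr166, Olfr167, Olfr168, Olfr170, Olfr191 and Olfr195, with differences from -3.76 to -1.34. The difference was negative in 32 of 33 members, in 92.4% of the other 994 odorant receptors and in 45.2% of all genes tested. Its median was -1.13 over the members, -0.71 over the other odorant receptors and 0.02 over all genes tested. Among those other receptors 71, or 7.14%, were called lower. At an unadjusted p under 0.05, 427 of them were lower and 0 higher.

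Without Fezf1-/- array 1, 10 receptors were called lower and 0 higher, against 1.67% and 0.993% of all genes, and the median was -0.92. Of the other 994 odorant receptors 179, or 18.0%, were then called lower and 5 higher, with a median of -0.39. The 10 include all 7 named above, together with Olfr171, Olfr197 and Olfr206. With all 6 arrays, the 3 Fezf1-/- values all lay below the 3 Fezf1+/- values in 25 of the 33 members. This order was found in 435 of the other 994 odorant receptors and in 8.77% of all genes. The reverse order was found in 0 members, in 0 of the other odorant receptors and in 9.72% of all genes. In the other 8 members the groups overlapped.

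**Figure D1:**
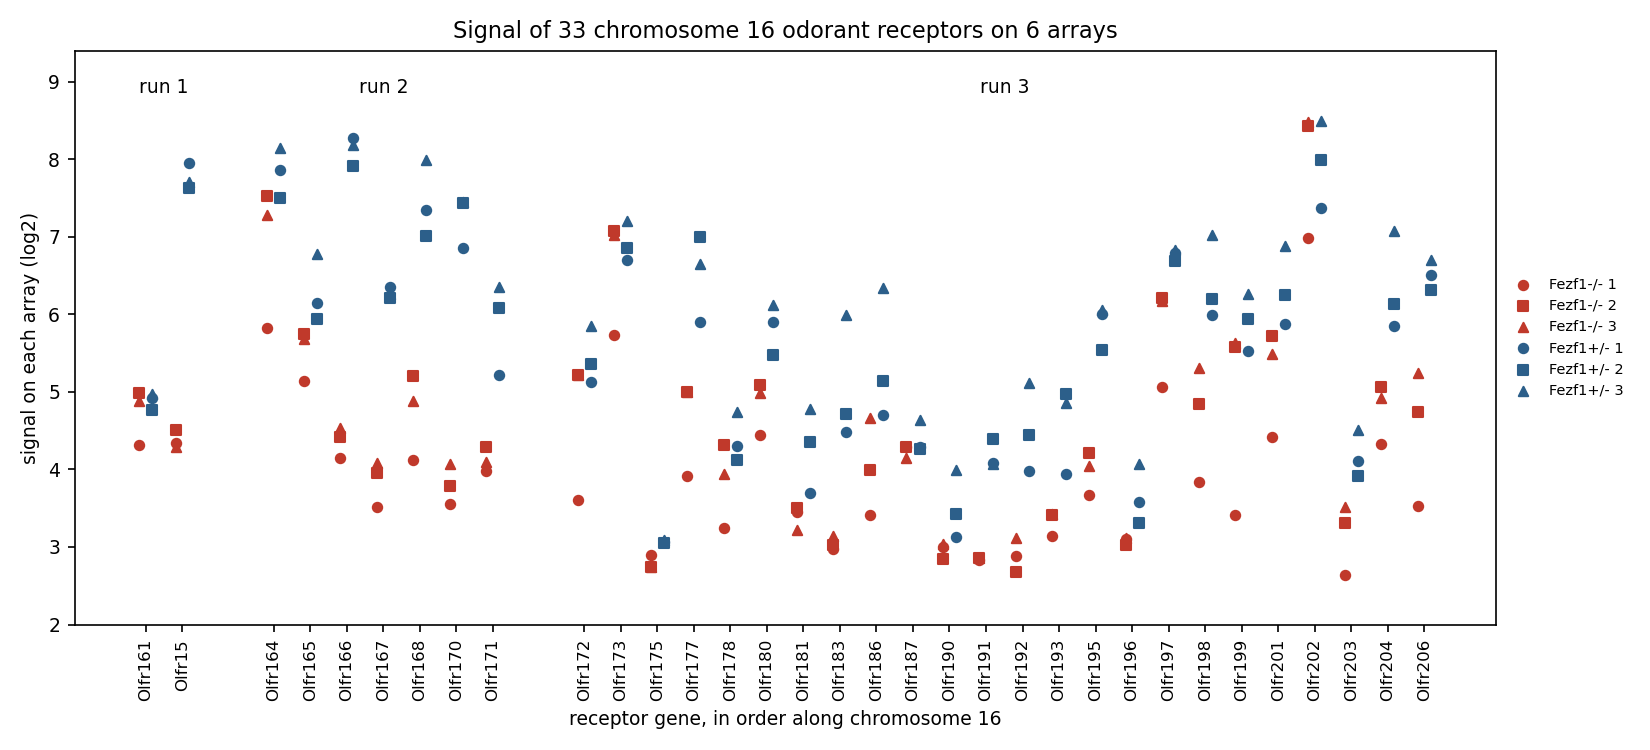
Signal (log2) of each of the 33 receptors on the 3 Fezf1-/- arrays (red, left of each tick) and the 3 Fezf1+/- arrays (blue, right), in order along chromosome 16. Gaps separate the 3 runs, and each symbol shape is a replicate number. Olfr15 lies between 4.28 and 4.51 on the Fezf1-/- arrays and between 7.63 and 7.96 on the Fezf1+/- arrays, while the values of its run partner Olfr161 overlap.

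The plot of signals by receptor shows a range of differences among the members, from -3.76 to 0.016. No grouping of them into kinds was tested. Some stood clear of the Fezf1+/- values by several units on every Fezf1-/- array, and others were low on Fezf1-/- array 1 alone.

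Olfr15, also named MOR256-17, had signals of 4.34, 4.51 and 4.28 on the Fezf1-/- arrays, against 7.96, 7.63 and 7.71 on the Fezf1+/- arrays. The replicates of each group were close together and the groups lay more than 3 units apart. On Fezf1-/- arrays 1 and 3 its signal lay below the lower quartile of that array (4.44 and 4.42). The size of the difference therefore depends on the background estimate. The mean of Olfr15 was 4.38 ± 0.12 in Fezf1-/- cells and 7.77 ± 0.17 in Fezf1+/- cells (SD, n = 3 each). The groups differed by -3.39 (SE 0.12, limma adjusted p = 0.000755). It was -3.37 without Fezf1-/- array 1, and the call held whichever array was left out.

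Olfr161 (MOR131), at the other end of run 1, had 4.31, 4.98 and 4.89 on the Fezf1-/- arrays, against 4.92, 4.76 and 4.97 on the Fezf1+/- arrays. Its groups overlapped, and the difference of -0.16 had a 95% interval from -0.63 to 0.31 (limma adjusted p = 0.804). Its sign turned, to 0.050, without Fezf1-/- array 1. Between these receptors lie Mefv, which encodes pyrin, and the zinc-finger gene Zfp263. Their differences were 0.28 and -0.34 (limma unadjusted p = 0.0367 and 0.0271, adjusted p = 0.485 and 0.445).

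In run 2, 4 of the 7 members fell, against 7.14% of the other odorant receptors and 0.456% of all genes, and the median difference was -2.42. The count was 5 and the median -2.25 without Fezf1-/- array 1, against 18.0% of the other odorant receptors and 1.67% of all genes. The 4 are Olfr166, Olfr167, Olfr168 and Olfr170, which stand next to each other in gene order except for Olfr169. The difference between this run and the others was not tested.

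Olfr166 (MOR270) stood at 4.14, 4.42 and 4.53 on the Fezf1-/- arrays, against 8.28, 7.91 and 8.18 on the Fezf1+/- arrays. It had the lowest difference of the 33, at -3.76 (SE 0.15, limma adjusted p = 0.000755), and -3.65 without Fezf1-/- array 1. Olfr167 (MOR272) had 3.52, 3.96 and 4.09 on the Fezf1-/- arrays, against 6.35, 6.21 and 6.26 on the Fezf1+/- arrays. All of its Fezf1-/- values lay below the lower quartile of their array, which ran from 4.30 to 4.44 over the 6 arrays, and the difference was -2.42 (SE 0.16, limma adjusted p = 0.0042).

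Olfr170 (MOR273) gave 3.55, 3.78 and 4.07 on the Fezf1-/- arrays, against 6.85, 7.44 and 7.46 on the Fezf1+/- arrays. All of its Fezf1-/- values lay below the lower quartile of their array. The groups did not overlap, and the difference was -3.45 (SE 0.22, limma adjusted p = 0.00406). Its calls and those of Olfr15, Olfr166 and Olfr167 held in each of the 6 fits that leave out 1 array.

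Olfr168 (MOR271) was more variable, with 4.13, 5.21 and 4.88 on the Fezf1-/- arrays, against 7.35, 7.01 and 8.0 on the Fezf1+/- arrays. Its difference of -2.71 (SE 0.36) passed narrowly (limma adjusted p = 0.0481). Among the fits that leave out 1 array it passed only without Fezf1-/- array 1 (adjusted p = 0.00894), and over these fits the adjusted p reached 0.188.

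Olfr171, the MOR273 relative of Olfr170, had 3.99, 4.28 and 4.10 on the Fezf1-/- arrays, against 5.22, 6.08 and 6.35 on the Fezf1+/- arrays. The groups were apart by nearly 1 unit, but Fezf1+/- array 1 lay below the other Fezf1+/- arrays, and the difference of -1.76 (SE 0.30) did not pass (limma adjusted p = 0.099). Without Fezf1-/- array 1 it was called lower (-1.69, adjusted p = 0.0452), and over the fits that leave out 1 array its adjusted p ran from 0.0263 to 0.373.

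The MOR279 genes Olfr164 and Olfr165, at one end of run 2, did not pass. Olfr164 had 5.83, 7.53 and 7.28 on the Fezf1-/- arrays, against 7.87, 7.5 and 8.15 on the Fezf1+/- arrays. Its low value was on Fezf1-/- array 1 and the groups overlapped, with a difference of -0.96 (95% interval -2.09 to 0.17, limma adjusted p = 0.587) and of -0.43 without that array. Olfr165 had a difference of -0.76 (SE 0.27, limma adjusted p = 0.456), and -0.57 without it.

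**Figure D2:**
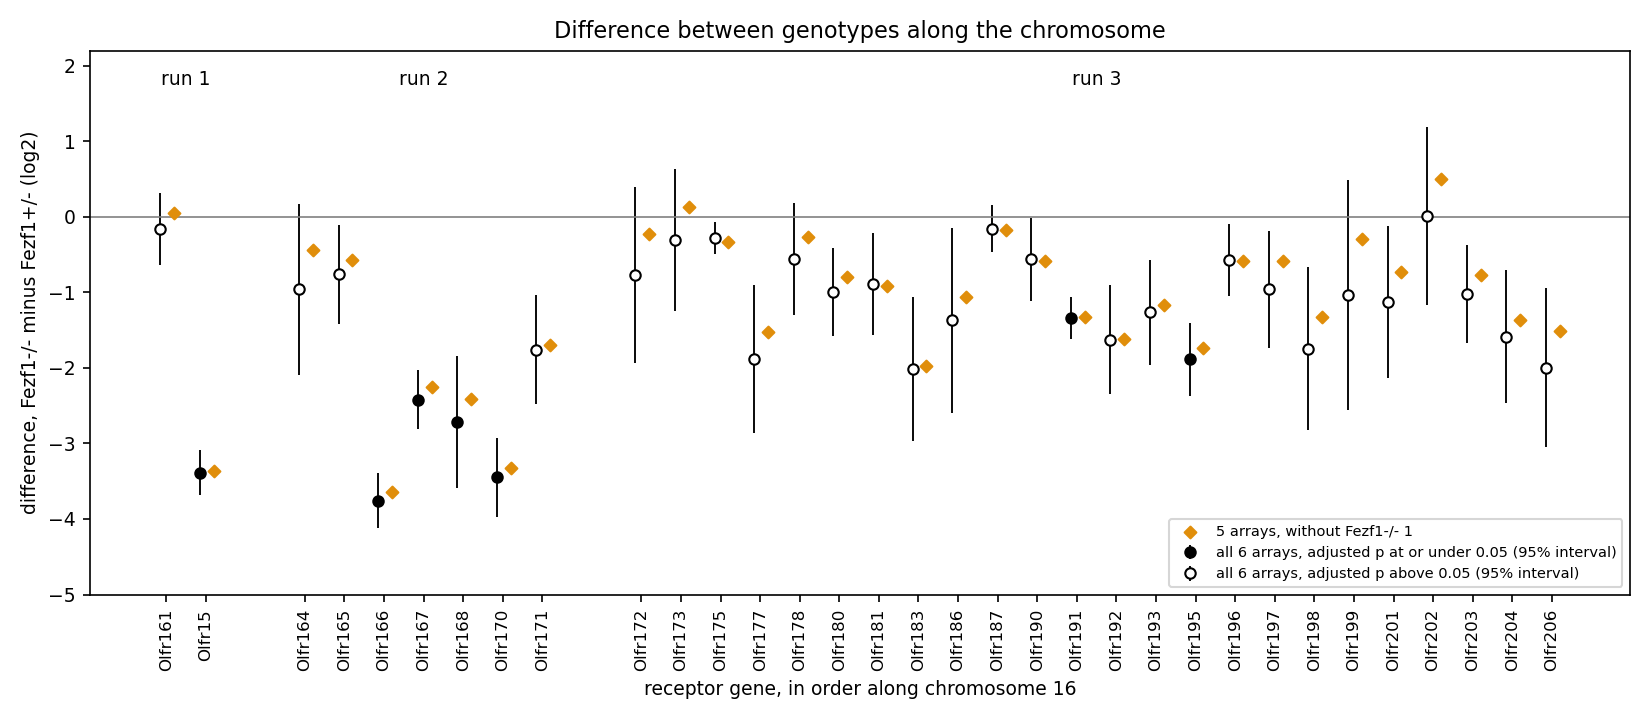
Difference in log2 signal, Fezf1-/- minus Fezf1+/-, for each receptor in order along chromosome 16, with the 95% interval from limma. Filled circles passed the adjusted threshold, open circles did not, and diamonds give the difference without Fezf1-/- array 1. The 4 lowest differences, from -3.76 to -2.71, belong to Olfr166, Olfr170, Olfr15 and Olfr168.

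The plot of differences along the chromosome sets run 3 beside the others. There 2 of 24 members (8.33%) fell, Olfr191 and Olfr195, and the median difference was -1.03. This share is near the 7.14% of the other odorant receptors, against 0.456% of all genes. Without Fezf1-/- array 1 the count was 4 (16.7%) and the median -0.78, against 18.0% of the other odorant receptors and 1.67% of all genes. At an unadjusted p under 0.05, 18 of the 24 were lower, against 427 of the other 994 odorant receptors and 5.25% of all genes.

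Olfr191 (MOR183) had 2.83, 2.85 and 2.86 on the Fezf1-/- arrays, against 4.09, 4.39 and 4.07 on the Fezf1+/- arrays. All Fezf1-/- values lay near the bottom of the array's range and 2 of the 3 Fezf1+/- values also lay below their lower quartile, so the size of the difference depends on the background estimate. That difference was -1.34 (SE 0.11, limma adjusted p = 0.0105). It did not pass without Fezf1-/- array 2 or 3 or without Fezf1+/- array 3, and over the fits that leave out 1 array its adjusted p ran from 0.00417 to 0.0828.

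Olfr195 (MOR184) stood at 3.68, 4.21 and 4.05 on the Fezf1-/- arrays, against 6.01, 5.54 and 6.05 on the Fezf1+/- arrays. All of its Fezf1-/- values lay below the lower quartile of their array. The groups were more than 1 unit apart, with a difference of -1.89 (SE 0.20, limma adjusted p = 0.0224). It lost its call without Fezf1+/- array 1 or 3 or Fezf1-/- array 2 or 3, where the adjusted p reached 0.144.

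The transcribed pseudogene Olfr192 had 2.88, 2.67 and 3.11 on the Fezf1-/- arrays, against 3.98, 4.44 and 5.12 on the Fezf1+/- arrays. Its groups did not overlap, but the difference of -1.63 (SE 0.30) did not pass (limma adjusted p = 0.126). Olfr183 (MOR183) had 2.98, 3.03 and 3.14 on the Fezf1-/- arrays, against 4.48, 4.71 and 5.99 on the Fezf1+/- arrays. Here the spread lay among the Fezf1+/- arrays, and the difference was -2.01 (SE 0.39, limma adjusted p = 0.144). Olfr177 (MOR184) had 3.91, 4.99 and 5.0 on the Fezf1-/- arrays, against 5.91, 7.0 and 6.65 on the Fezf1+/- arrays. It showed a low value on array 1 of both genotypes, and the difference was -1.88 (SE 0.40, limma adjusted p = 0.181). With Fezf1-/- array 1 left out, Olfr192 had -1.62, Olfr183 -1.98 and Olfr177 -1.52, with adjusted p-values of 0.0553, 0.0676 and 0.0518 by limma.

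The receptors described next had small differences. Olfr202 (MOR182) gave 6.99, 8.43 and 8.48 on the Fezf1-/- arrays, against 7.37, 7.99 and 8.49 on the Fezf1+/- arrays. Its means were 7.97 ± 0.85 in Fezf1-/- cells and 7.95 ± 0.56 in Fezf1+/- cells (SD, n = 3 each). The difference of 0.016 had a 95% interval from -1.16 to 1.19, so a change of about 2-fold either way in this receptor is not excluded. It was 0.50 without Fezf1-/- array 1 (SE 0.29, limma adjusted p = 0.452).

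Olfr173 (MOR184) was alike in form, with 5.73, 7.08 and 7.02 on the Fezf1-/- arrays, against 6.70, 6.86 and 7.20 on the Fezf1+/- arrays. Only Fezf1-/- array 1 lay apart, and the difference was -0.31 (95% interval -1.25 to 0.63, limma adjusted p = 0.806), or 0.13 without it. Olfr187 (MOR183) had 4.29, 4.29 and 4.15 on the Fezf1-/- arrays, against 4.29, 4.26 and 4.63 on the Fezf1+/- arrays, a difference of -0.15 (95% interval -0.47 to 0.16). Olfr175 (MOR184) had 2.89, 2.75 and 2.74 on the Fezf1-/- arrays, against 3.06, 3.06 and 3.09 on the Fezf1+/- arrays. All 6 of its values lay below the lower quartile of their array, where a difference such as its -0.28 (limma adjusted p = 0.39) has little range. Its groups did not overlap, and the 95% interval ran from -0.49 to -0.065 (limma unadjusted p = 0.0185). Olfr175 is thus among those counted as lower before adjustment.

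The remaining members of run 3 did not pass with all 6 arrays. By family, 0 of 7 MOR182 members, 1 of 7 MOR183 members and 1 of 8 MOR184 members were called, with median differences of -1.13, -0.96 and -0.83. Of the other odorant receptors 7.14% were called lower, and of all genes 0.456%. At an unadjusted p under 0.05 the family counts were 5, 6 and 5. The calls without Fezf1-/- array 1 were 1, 2 and 1 and the medians -0.77, -0.58 and -0.56, where 18.0% of the other odorant receptors were called lower. Olfr206 (MOR182) had 3.53, 4.75 and 5.25 on the Fezf1-/- arrays, against 6.5, 6.31 and 6.70 on the Fezf1+/- arrays. Its Fezf1-/- values were spread widely, and the difference of -2.0 (SE 0.43, limma adjusted p = 0.189) was -1.51 (SE 0.18, adjusted p = 0.00995) without Fezf1-/- array 1. The pseudogene Olfr197 likewise had -0.96 (SE 0.32, adjusted p = 0.424) with all arrays and -0.58 (SE 0.09, adjusted p = 0.0281) without that array. Olfr206 and Olfr197 were picked out with their values known.

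Across arrays, 26 of the 33 members had their lowest value on Fezf1-/- array 1 and 26 had their highest on Fezf1+/- array 3. Relative to the mean of the other Fezf1-/- arrays, array 1 differed by a median of -0.60 over all members, -0.37 over the 7 that fell and -0.72 over the other 26. A call favours a small spread within groups, so the contrast between called and other members follows in part from the selection. The median of the 33 signals was 3.68, 4.42 and 4.53 on Fezf1-/- arrays 1 to 3, against 5.86, 5.94 and 6.26 on Fezf1+/- arrays 1 to 3. For the other 994 receptors the medians were 4.75, 5.70 and 5.82 on the Fezf1-/- arrays, against 6.20, 6.21 and 6.67 on the Fezf1+/- arrays. Of the 33 members, 15 had all 3 Fezf1-/- values below the lower quartile of their array, and 5 of these had no Fezf1+/- value below it. No fold is given for single receptors, because values near the bottom of the range depend on the background estimate.

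**Figure D3:**
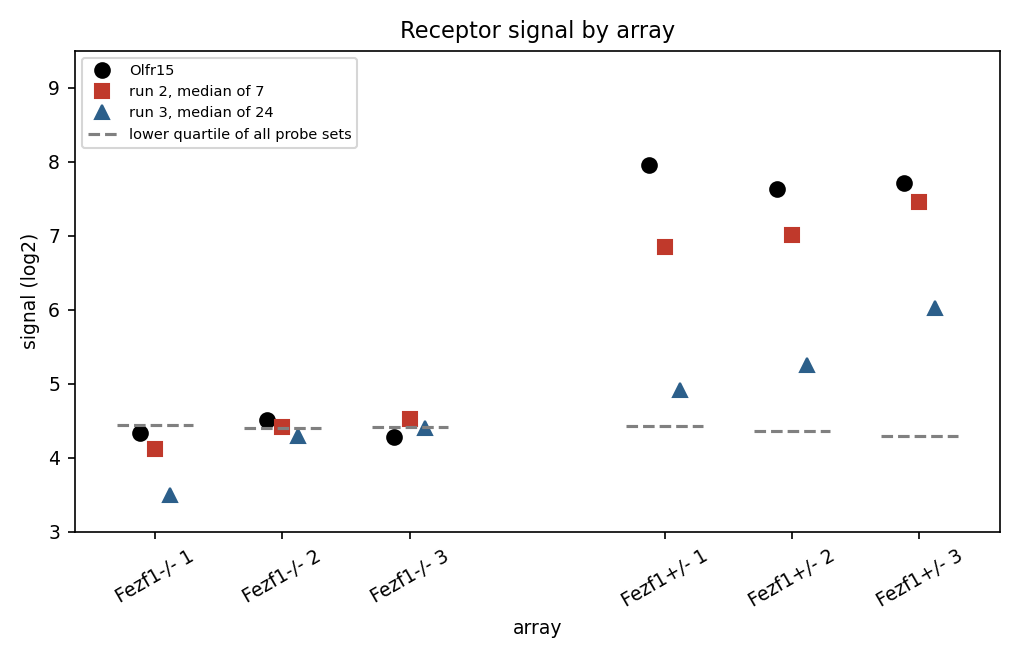
Signal (log2) on each array of Olfr15 (circles) and the median over the 7 members of run 2 (squares) and the 24 members of run 3 (triangles), Fezf1-/- arrays on the left. Dashed marks give the lower quartile of all probe sets on that array. The run 3 median was 3.49 on Fezf1-/- array 1 and 4.30 and 4.41 on the other Fezf1-/- arrays, against 4.92 to 6.02 on the Fezf1+/- arrays.

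The view of receptor signal by array shows that Olfr15 was about as low on Fezf1-/- array 1 as on the other Fezf1-/- arrays. The median over run 2 was 4.13, 4.42 and 4.53 on the Fezf1-/- arrays, against 6.85, 7.01 and 7.46 on the Fezf1+/- arrays.

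**Figure D4:**
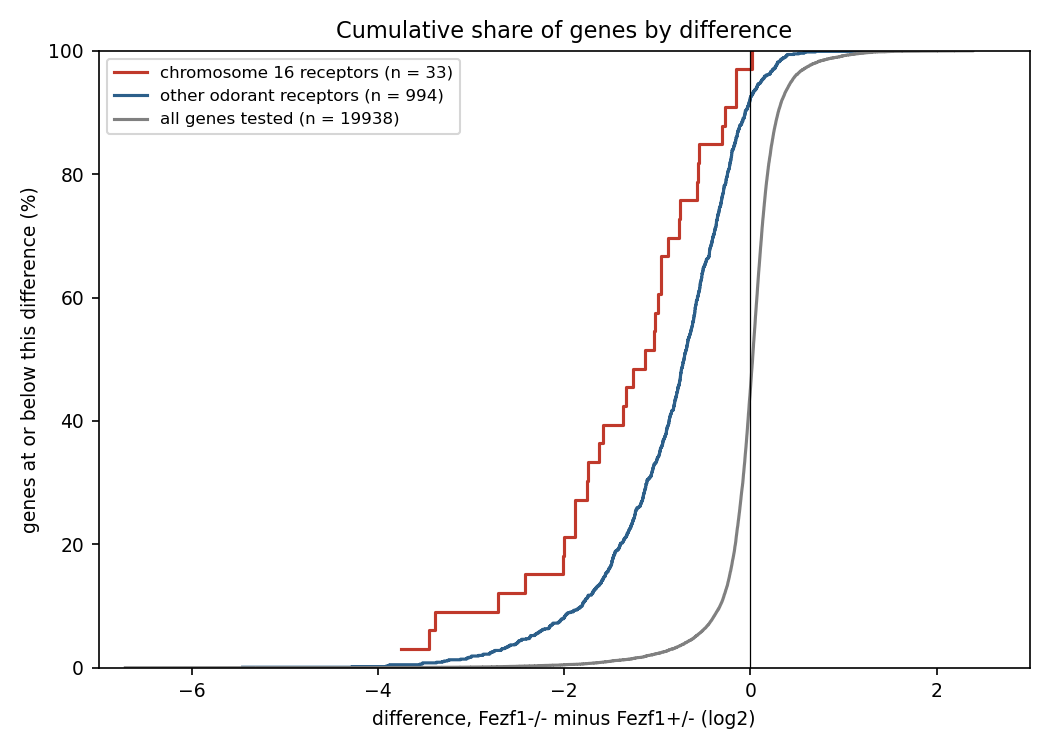
Share of genes (%) at or below each difference in log2 signal, Fezf1-/- minus Fezf1+/-, for the 33 chromosome 16 receptors, the other 994 odorant receptors and all 19938 genes tested. At its median the curve of the chromosome 16 receptors lies left of the others, at -1.13, against -0.71 for the other odorant receptors and 0.02 for all genes.

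The cumulative plot of differences is a description of a set chosen with these results known. By rank among the 1027 odorant receptors, from the lowest difference up, Olfr166 stood at 6, Olfr170 at 10 and Olfr15 at 11. Olfr168 followed at 32 and Olfr167 at 51. Just outside the numbers, Olfr211 on chromosome 6 had a difference of -1.27 (SE 0.34, limma adjusted p = 0.293), while inside the range Olfr161 had -0.16 and Olfr206 -2.0.

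Genes beside the runs that are no odorant receptor were measured with the same fit. Of 25 measured flanking genes, 0 were called by limma, 2 had an unadjusted p under 0.05, and the median difference was -0.0064, from -0.77 to 0.81. Those with an unadjusted p under 0.05 were Crybg3 (0.81, adjusted p = 0.243), beyond run 3, and Cluap1, a ciliary transport gene (-0.36, adjusted p = 0.476), beyond run 1. Mefv and Zfp263, inside run 1, are not counted among the 25 and also had an unadjusted p under 0.05. Without Fezf1-/- array 1, 1 of the 25 was called, the glycosyltransferase gene B3gnt5 beside run 2 (-1.15, adjusted p = 0.0205). It had -0.77 (adjusted p = 0.556) with all arrays.

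Genes that act with the receptors were examined as lists, which overlap with the marker lists. Most of the transduction genes, among them Omp and Adcy3, are also mature neuron markers, as are Ric8b and the regulator Ebf4. Counts over these lists are therefore not separate results. Of 16 measured genes of odorant transduction, 0 passed by limma, 12 were lower at an unadjusted p under 0.05, and the median difference was -1.18. Without Fezf1-/- array 1, 5 fell. The sodium and calcium exchanger Slc24a4 had -1.07 (adjusted p = 0.0635) with all arrays and the phosphodiesterase Pde1c -0.97 (adjusted p = 0.0694), by limma. Of the 4 genes of receptor trafficking 0 passed by limma, with 2 lower at an unadjusted p under 0.05. The chaperone gene Rtp1, which carries receptors to the cell surface, had -0.45 (SE 0.46) and Rtp2 had -0.68 (SE 0.46). The smallest p in that list belonged to Reep1 (-0.37, adjusted p = 0.335) and Ric8b (-1.01, adjusted p = 0.379).

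Regulators of receptor choice, such as the homeodomain factor Lhx2, its cofactor Ldb1 and the Ebf factors, had 0 of 14 genes past the threshold by limma, with 1 lower at an unadjusted p under 0.05. Their median difference was -0.16, and -0.01 without Fezf1-/- array 1. Lhx2 had -0.15 (SE 0.36) and Ldb1 -0.25 (SE 0.18). Ebf4 (-0.82, adjusted p = 0.46) and Ebf2 (-0.55, adjusted p = 0.665) had the smallest p of the list.

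Sequence before the annotated starts was searched for the letters that such factors recognise. RefSeq gives a 300-base window, 250 bases before to 50 after the annotated start, for 24 of the 33 members. In 14 of these the annotated start is itself an ATG, so the window begins before the coding sequence and may not reach the start of transcription. TAATTA or TAATTG, on either strand, was found in 5 of the 24 windows (20.8%), against 37.8% of the other odorant receptors' 924 windows and 12.4% of all 32851 windows. The Ebf-type letters, TCCC and GGGA with any 2 bases between them, read the same on both strands and were in 0 of the 24, 0.541% of the other receptors and 0.904% of all windows. The receptors Olfr15, Olfr170 and Olfr191, which fell and have a window, held none of these letters.

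The 5 members with TAATTA or TAATTG were Olfr172, Olfr181, Olfr196, Olfr198 and Olfr206. The example of Olfr206, which was called without Fezf1-/- array 1, is shown for the 250 bases before its annotated start, which is no ATG. Capitals mark TAATTG.
Olfr206 (chr16:59345727-59345976, GRCm38.p6, minus strand): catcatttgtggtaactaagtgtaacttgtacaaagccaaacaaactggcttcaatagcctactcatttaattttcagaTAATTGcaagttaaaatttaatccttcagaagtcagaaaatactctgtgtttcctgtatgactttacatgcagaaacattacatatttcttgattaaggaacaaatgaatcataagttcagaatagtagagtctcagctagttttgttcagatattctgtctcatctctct
The differences of these 5 members ran from -2.0 in Olfr206 to -0.57 in Olfr196, and those of the members whose windows hold neither ran from -3.45 in Olfr170 to 0.016 in Olfr202. A match is a string of letters and not a known binding site.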

How the data were processed

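The authors deposited a log2 signal for every probe set on every array. Per the submitters' processing notes, GCRMA and Affymetrix Expression Console were used. Their versions, any filter and the log base are not stated. The base was taken as 2, because values reach 14.5 and a natural logarithm of a scanner reading cannot exceed 11.1. Only these processed values were analysed, so background could not be examined per probe, and the number of arrays limits the precision. Of 35557 probe sets, 21789 carried 1 symbol. Entrez numbers gave the current RefSeq symbols (GRCm38.p6), and each gene kept its probe set with the highest mean, which left 19938 genes and no filter on low values.

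Fezf1-/- and Fezf1+/- arrays were compared over all genes by limma's moderated linear model (limma 3.58.1, R 4.3.3). Tests were two-sided, and p-values were adjusted by Benjamini and Hochberg's method across all genes, with a threshold of 0.05. The fit was tested on simulated data. The members and lists were chosen with earlier results of these data known. Named members were Olfr15, those called, the 4 next by p, the 4 highest differences and the 4 (of 3 available) least changed above the median mean. Grouping by protein identity was not done, and the MOR families of RefSeq's synonyms were used in its place. Promoter windows came from RefSeq, and coding starts were inferred from the bases after the annotated start in those windows. Alternatives were quantile normalisation, median centring, a filter on low means, the mean of probe sets, trend and robust moderation, array weights, a replicate block and leaving out each array.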

Additional observations from a re-analysis of the deposited data

How the results depend on the processing

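The count of chromosome 16 receptors called lower was 7 with quantile normalisation, with the mean of probe sets and with trend and robust moderation, 6 with median centring and 15 with array weights. It was 0 of the 3 members left by the filter on low means, which removed all 7 that fell. There the median difference was -0.31 over those 3, and 24 of 9969 genes were called, against 110 of all genes in the main setting and 740 with array weights. The replicate numbers were not taken as pairs, since deviations from the group means correlated across genes by 0.23, -0.33 and 0.54 for numbers 1 to 3. With the replicate number as a block 5 members were called, 4 of them among the 7, and 88 genes in all. The count of receptors called higher was 0 in each of these settings. Leaving out 1 array gave 40 to 531 genes, 4 to 10 receptors called lower and a median from -1.36 to -0.89. The lowest counts of receptors, 4, came without Fezf1-/- array 2 or 3. Olfr202 turned to -0.27 without Fezf1+/- array 1 and to -0.22 and -0.24 without Fezf1-/- arrays 2 and 3. Olfr161 turned to 0.067 with array weights and 0.050 without Fezf1-/- array 1, and Olfr173 to 0.12 and 0.13. Over the fits that leave out 1 array the differences ran from -0.27 to 0.50 for Olfr202, -0.29 to 0.050 for Olfr161 and -0.54 to 0.13 for Olfr173. None of these was called. The cause was not tested.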

Other observations

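Probe sets that carry several symbols were left out of the comparison, and 4 of them name receptors of these runs. The probe set of Olfr169, Olfr170 and Olfr171 had signals of 4.82, 5.26 and 5.14 on the Fezf1-/- arrays, against 8.07, 7.73 and 8.20 on the Fezf1+/- arrays. The probe set of Olfr208 and Olfr209, which RefSeq now lists as a single gene, had 4.05, 6.31 and 4.93 on the Fezf1-/- arrays, against 7.03, 7.07 and 7.92 on the Fezf1+/- arrays. The probe set of Olfr194 and Olfr203 averaged 5.81 ± 0.86 in Fezf1-/- cells and 7.11 ± 0.26 in Fezf1+/- cells, and that of Olfr204, Olfr205 and Olfr206 averaged 5.61 ± 0.72 and 7.19 ± 0.20 (SD, n = 3 each). On each of these 4 probe sets the 3 Fezf1-/- values lay below the 3 Fezf1+/- values. Among genes with a single-symbol probe set, 435 of the other 994 odorant receptors and 8.77% of all genes had this order. Except for that of Olfr208 and Olfr209, these probe sets also name members, so they are no separate observations. No test was run on them, and the signal cannot be given to a single gene.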
